A study of Mus musculus and Rattus norvegicus with 4 samples.

Results

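The 9 genes Myod1, Myog, Myf5, Myf6, Pax3, Pax7, Six4, Eya1 and Eya4 encode transcription factors and cofactors that commit cells to the skeletal muscle lineage and start their differentiation. They were taken as a named list, 9 of the 21887 protein-coding genes of the mouse annotation, and the rule that names them uses no measured value, though earlier results of these data were known when the list was drawn up. MEF2A binding around them was read from a ChIP-exo experiment in the mouse myoblast line C2C12, whose cells fuse into myotubes when serum is lowered, here kept for 48 h in differentiation medium with 2% horse serum. ChIP-exo is chromatin immunoprecipitation in which an exonuclease trims the recovered DNA toward the bound protein. The series held 4 libraries, 1 per group: MEF2A in C2C12 cells, MEF2A in primary cardiomyocytes from newborn rats, and normal rabbit IgG in each of the 2 cell types. Only the C2C12 MEF2A peak list bears on these mouse genes. The labels name no genetic change in any group, and C2C12 is a single established line. A peak list does not measure expression, so the labelled cell type could not be checked against its markers.

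In the embryo and in satellite cells, Pax3 and Pax7 mark muscle progenitors, and homeodomain proteins such as Six4, with their EYA coactivators, act upstream of the MyoD family. The MyoD family consists of basic helix-loop-helix factors that bind E-boxes as dimers with E proteins: Myf5, Myod1 and Myf6 take part in determination, and Myog drives terminal differentiation. MEF2 proteins, of which MEF2A is a member, bind an A/T-rich element and cooperate with the MyoD family at muscle genes. Mouse Myog is a textbook case, since its proximal promoter carries a MEF2 element and E-boxes.

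The C2C12 list held 2797 peaks, with the authors' score for each peak running from 50.1 to 3100 around a median of 77.0. Only peaks past the authors' threshold are listed and the read depth is unknown, so a gene without a listed peak is not shown to be unbound. There were no replicates, and all values below describe 1 library without a test.

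Of the 9 genes, only Eya1 and Eya4 were assigned MEF2A peaks. Each peak went to the protein-coding span closest to it, if that span lay within 100 kb, with distances measured between the facing edges of peak and span. Eya1 and Eya4 each received 2 peaks, and the other 7 genes, including all 4 of the MyoD family, received none. With 7.73% of all protein-coding genes assigned a peak, a count of 0 among 4 genes is near the background and is not a result about the MyoD family. The count of 2 of 9 genes stands beside 7.73% of all protein-coding genes with an assigned peak, and 1.96% with at least 2. Eya1 and Eya4 are also long and isolated genes. Counting the span and its share of the flanks, 342 kb of genome would be assigned to Eya1 and 448 kb to Eya4, against a median of 45.8 kb per gene. The MyoD family genes were below that median, with 43.7 kb for Myod1, 31.9 kb for Myog, 35.9 kb for Myf5 and 14.7 kb for Myf6. Among the 5472 genes with the longest such territories, of at least 110.5 kb, 18.8% had an assigned peak. Only 3.47% of all genes had a longer territory than Eya1 and 2.07% than Eya4, so the 18.8% is not matched to their lengths. Pax3 (205 kb) and Pax7 (194 kb) are among the 5472 genes and had none, which is near that share and is not a result about them.

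**Figure D1:**
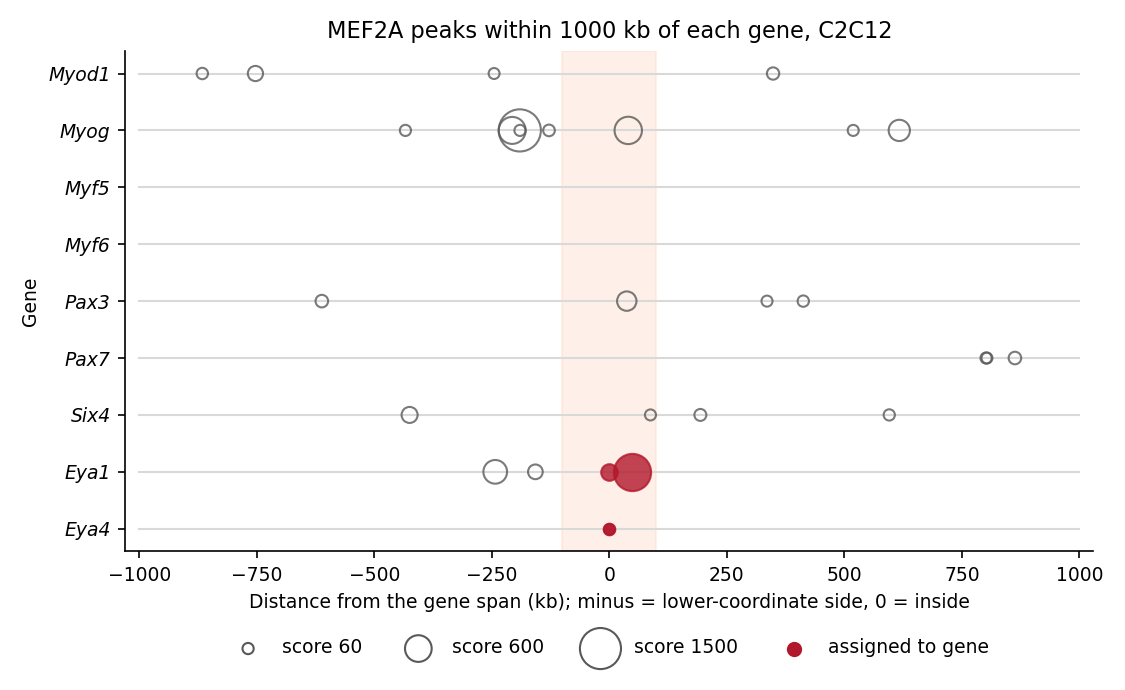
MEF2A peaks within 1000 kb of each of the 9 genes in C2C12 cells, by distance from the gene span in kb (negative on the lower-coordinate side, 0 inside), with circle area growing with the authors' score and the shaded band marking 100 kb. Filled circles are peaks assigned to the gene; the 2 Eya4 peaks, both inside the span, overlap at 0, and no peak appears beside Myf5 or Myf6.

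Eya1, a phosphatase and transcriptional coactivator that partners homeodomain proteins of the Six4 family in muscle progenitors, had the highest-scoring assigned peak of the set. Its span lies on chromosome 1 at 14168953 to 14311035 (mm10) and covers 142 kb. The higher-scoring peak, at chr1:14360014-14360462, scored 1225 and ranked 25 of 2797, so that 0.86% of peaks scored higher. It lay 49.0 kb beyond the higher-coordinate end of the span. The next gene on its far side, Msc, which encodes the MyoD family repressor musculin, was 393 kb away. The peak was 449 bp wide, against a median of 144 bp in the list.

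The other Eya1 peak, at chr1:14273736-14273944, lay inside the span, 37.1 kb from its higher-coordinate end, and scored 199 (rank 428). On the lower-coordinate side 2 further peaks were beyond the 100 kb limit. The peak at chr1:14011545-14011779 (score 143) was 157 kb from Eya1, which was still the nearest protein-coding gene. That at chr1:13925937-13926333 (score 461) was 243 kb from Eya1 and 224 kb from Xkr9. The Eya1 neighbourhood thus held 4 peaks within 250 kb, a number reached or exceeded by 2.94% of genes, and all 4 scored above the list median. The number was still 4 within 500 kb and within 1000 kb, where 9.02% and 26.8% of genes had at least as many. The 250 kb window was chosen after seeing the data. Windows are measured from the ends of the span, so a long gene takes in more genome. By score alone, the peaks ranked just above and just below the Eya1 peak of score 1225 were assigned to Cd300lb, an immune receptor gene (1259, inside the span), and Lpp, a focal adhesion protein gene (1180.1, at 69.0 kb).

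Eya4, an EYA family member expressed in muscle, inner ear and heart, also had 2 peaks, but both had low scores and both lay inside its span (chromosome 10, 23102962 to 23350838, minus strand). The peak at chr10:23346820-23346959 scored 68.2 (rank 1651) and was 2.93 and 2.98 kb downstream of the 2 start sites that RefSeq gives for this gene. The second, at chr10:23336393-23336506, scored 55.2 (rank 2380) and lay 13.4 kb downstream of both. Both scores were under the list median of 77.0. No other peak came within 1 Mb of Eya4, and the next protein-coding gene, Rps12, was 438 kb from the closer of these peaks. In score, the higher-scoring Eya4 peak (68.16) came directly after 6 peaks that tied at 68.17, 1 of them inside the glypican gene Gpc6. It was followed by a peak of 68.0 at 21.3 kb from Ralgapa2, a subunit gene of a Ral GTPase activator.

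**Figure D2:**
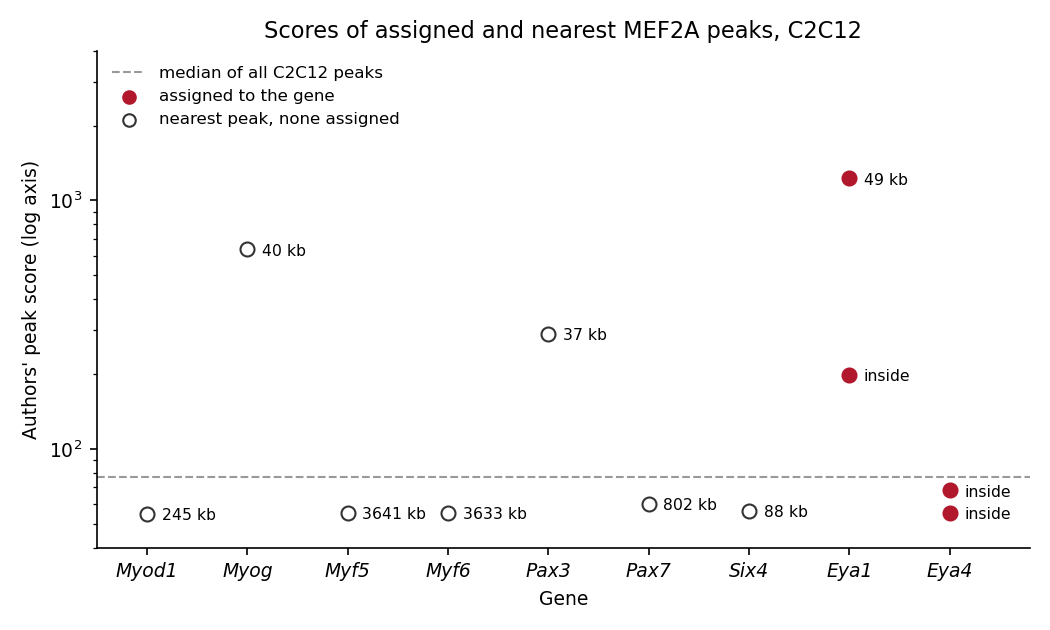
Authors' score on a log axis of each peak assigned to a gene (filled) or, for genes with none, of the nearest peak (open, labelled with its distance in kb), with the list median of 77.0 as a dashed line. Eya1, Myog and Pax3 have peaks between 199 and 1225, and the peaks shown for the other 6 genes score below the median.

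Myog, the myogenin gene, had no assigned peak but lay in a neighbourhood with high-scoring ones. Its span is short (chromosome 1, 134290004 to 134292548, plus strand) and only 31.9 kb of genome would be assigned to it. The nearest peak, at chr1:134332927-134333404, scored 635 (rank 74) and lay 40.4 kb downstream of the gene, or 42.9 kb from its start site. It was assigned to Ppfia4, a liprin scaffold gene whose span holds it, and Tmem183a was also nearer than Myog. Of all protein-coding genes 12.4% had a nearer peak.

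Upstream of Myog lay a further 5 peaks within 500 kb. The highest-scoring, at chr1:134098990-134099621, scored 1582 (rank 12) at 190 kb from Myog, and was assigned to the chitinase gene Chit1 at 11.6 kb. Another at chr1:134082808-134083470 scored 615 (rank 78) at 207 kb and belonged by distance to Btg2, an antiproliferative gene. The remaining 3 scored 58.0, 58.7 and 69.1, at 190.0, 434 and 128 kb from the Myog span. The peak of 58.0, at chr1:134099853-134100001, lay less than 1 kb from the highest-scoring one, so these 2 may not be separate sites. Of all protein-coding genes, 2.91% had as many as these 6 peaks or more within 500 kb, and 0.85% had a peak of at least 1582 within that distance. The 6 include both of the peaks less than 1 kb apart, and the share with such peaks merged was not computed. The genes Mybph, for a myosin-binding protein, and Adora1, for an adenosine receptor, lie between the upstream peaks and Myog. Proximity does not show which of these genes a peak acts on.

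The promoter windows of Myog, Myf5 and Eya4 are shown because they compare the known MEF2-dependent promoter of the set with the windows of the listed gene farthest from any peak and of the gene with a peak near its start. Each runs from 250 bases before to 50 bases after a start site, 5′ to 3′ along the gene, from RefSeq on GRCm38.p6. Capitals mark E-boxes, searched as CANNTG, and the core of the MEF2 element, searched as TANNNNTA with only A or T at the 4 inner positions, both on either strand.
Myog, chr1:134289754-134290053, plus strand: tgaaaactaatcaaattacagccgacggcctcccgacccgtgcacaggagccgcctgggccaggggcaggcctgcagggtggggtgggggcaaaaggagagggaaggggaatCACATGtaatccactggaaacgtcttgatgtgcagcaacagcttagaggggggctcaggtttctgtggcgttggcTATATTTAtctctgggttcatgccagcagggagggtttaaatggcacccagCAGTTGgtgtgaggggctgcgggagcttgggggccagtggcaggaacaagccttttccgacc
Myf5, chr10:107486085-107486384, minus strand: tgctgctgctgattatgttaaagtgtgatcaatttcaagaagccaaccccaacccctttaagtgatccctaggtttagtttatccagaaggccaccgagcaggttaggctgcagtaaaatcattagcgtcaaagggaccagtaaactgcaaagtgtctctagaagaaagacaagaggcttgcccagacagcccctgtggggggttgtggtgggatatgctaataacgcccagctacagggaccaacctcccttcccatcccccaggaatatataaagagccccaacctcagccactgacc
Eya4, chr10:23349894-23350193, minus strand: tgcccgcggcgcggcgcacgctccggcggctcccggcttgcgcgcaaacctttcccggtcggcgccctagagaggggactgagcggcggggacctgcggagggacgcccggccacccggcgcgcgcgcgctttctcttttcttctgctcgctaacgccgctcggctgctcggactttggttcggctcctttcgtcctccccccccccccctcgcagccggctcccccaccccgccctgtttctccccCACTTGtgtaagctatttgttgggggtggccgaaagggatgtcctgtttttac

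The Myog window held 1 match to the core, TATATTTA, which begins 63 bases upstream of the start site, and E-boxes beginning 138 and 12 bases upstream. The Myf5 window held neither motif, and the Eya4 window held 1 E-box and no core. Windows were found for 5 of the 9 genes (Myog, Myf5, Pax7, Six4 and Eya4, 7 windows in all), and Myog was the only 1 of these genes with a core match. None of the 7 windows overlapped a listed peak. Only 70 of all 21263 promoter windows of protein-coding genes did, so this count is near the background and is not a result about these genes. The nearest peak was 42.9 kb from the Myog window, 2.94 kb from the Eya4 window shown and 3641 kb from the Myf5 window.

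Among all 21263 promoter windows of protein-coding genes, 7.92% held the core, and among the 70 windows that overlapped a C2C12 peak, 27.1% did. The full 10-letter MEF2 consensus was held by 2.74% of all windows and by 14.3% of those with a peak, and by none of the 7 windows of the listed genes. The Myog core match misses that consensus. E-boxes were in 69.0% of all windows and in 62.9% of those with a peak. A motif match is a description of the letters in a window and not evidence of binding. The deposited files hold no sequence for the peaks themselves.

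Myod1, the founding member of the family, had no listed peak within 100 kb of its span (chromosome 7, 46376474 to 46379092). The nearest, at chr7:46131334-46131435, lay 245 kb away on the lower-coordinate side and scored 54.7 (rank 2458), near the bottom of the list. It lies inside Abcc8, the sulphonylurea receptor gene, and 10 protein-coding genes were closer to it than Myod1. On the higher-coordinate side the first peak was 348 kb away (score 83.7), beside the serum amyloid gene Saa4. The 245 kb to the nearest peak was not unusual, since 40.1% of all genes had a nearer peak and the median over all genes was 354 kb.

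Myf5 and Myf6 sit side by side on chromosome 10 (107482908 to 107486927 and 107492848 to 107494723) and share every neighbouring peak, so they are not separate observations. They lay in a peak-free interval of 11.2 Mb with 44 protein-coding genes, the fourth longest of the 2776 intervals between neighbouring peaks, whose median was 0.35 Mb. The nearest peak to both, at chr10:111127693-111127824, scored 55.5 (rank 2372) at 3.64 Mb from Myf5 and 3.63 Mb from Myf6, next to Osbpl8. On the lower-coordinate side the first peak, nearest to the KIT ligand gene Kitl, was 7.54 Mb from Myf5 and scored 74.5. For each of the pair, 97.4% of all genes had a nearer peak.

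**Figure D3:**
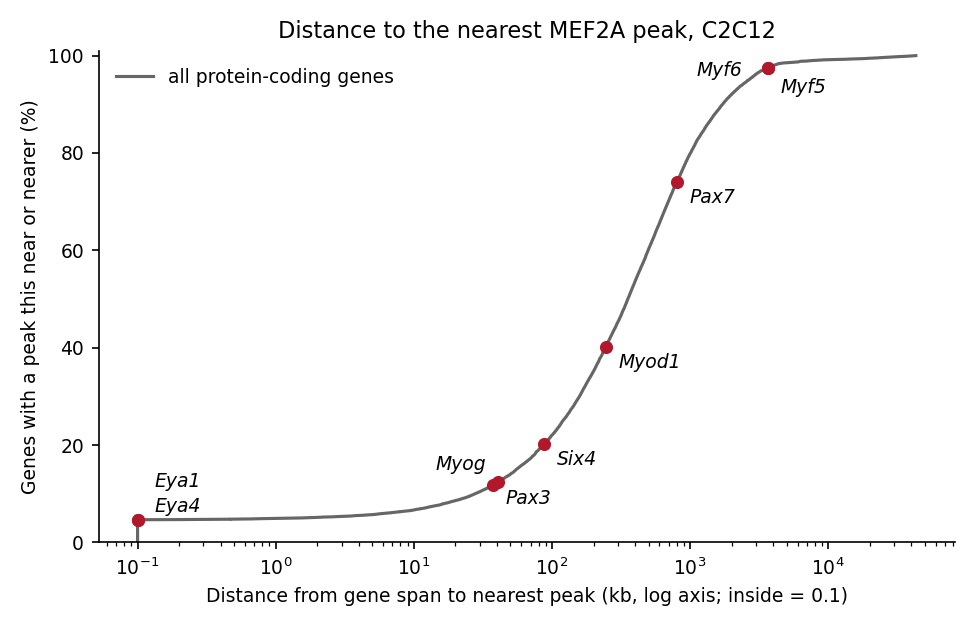
Share of all 21887 protein-coding genes, in percent, with a MEF2A peak at or nearer than the distance on the x axis (kb, log scale, peaks inside a span drawn at 0.1), with the 9 genes as points. The points run from Eya1 and Eya4, with peaks inside, through Pax3 and Myog near 40 kb to Myf5 and Myf6 at 3633 and 3641 kb.

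The PAX genes differed from each other. Pax3, which acts in migrating limb muscle progenitors, spans 95.9 kb on chromosome 1 (78101267 to 78197136). A peak at chr1:78234359-78234706 scored 290.4 (rank 259) and lay 37.2 kb beyond its higher-coordinate end. It was assigned to the predicted gene Gm2102, which lies between Pax3 and the peak at 16.1 kb. Had this predicted gene been left out, Pax3 would have been the nearest, since the next gene, Sgpp2, was 74.8 kb away. Of all genes, 11.8% had a nearer peak.

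Pax7, the satellite cell regulator, spans 96.5 kb on chromosome 4 (139737059 to 139833530, minus strand) and had no peak within 500 kb. The nearest, at chr4:140635119-140635251, lay 802 kb upstream inside Arhgef10l and scored 60.1 (rank 2035). A second peak of score 53.9 followed it at 804 kb, and another of 89.5 at 863 kb. The interval without a peak around Pax7 was 2.43 Mb long with 35 genes, and 74.0% of all genes had a nearer peak. Although Pax3 and Pax7 are close paralogues of nearly equal length, the highest peak score within 500 kb was 290.4 for Pax3, and Pax7 had no peak in that range. Neither is rare, since 39.8% of all genes had no peak within 500 kb and 11.7% had one of at least 290.4 there.

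Six4, a homeodomain factor of muscle progenitors, spans chromosome 12 from 73099609 to 73114031 on the minus strand. Its nearest peak, at chr12:73201653-73201905, lay 87.6 kb from the span on the upstream side and scored 56.4 (rank 2305). The peak is inside Mnat1, a subunit gene of the CDK-activating kinase, whose span (73112185 to 73273988) overlaps that of Six4. The next peaks were at 194 kb upstream (score 75.8) and 425 kb downstream (score 181). Of all genes, 20.1% had a nearer peak.

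The count of 2 genes was the same with limits of 10, 50 or 500 kb, with distances taken to span ends and with noncoding genes included. The limits of 10 and 50 kb and the noncoding genes could not have changed it. They add no peak to a gene, and Eya1 and Eya4 each hold a peak inside the span. Letting every peak within 100 kb count for a gene, whether or not another gene was nearer, added Myog, Pax3 and Six4 and gave 5 of 9, beside 22.0% of all genes. Myod1, Myf5, Myf6 and Pax7 had none under this rule either. Among peaks scoring 100 or more, Eya1 kept both of its peaks and was the only 1 of the 9 with an assigned peak, beside 3.47% of all genes. The nearest-peak distance, with the 9 genes ordered from near to far, was 0 kb for Eya1 and Eya4, 37.2 kb for Pax3, 40.4 kb for Myog, 87.6 kb for Six4, 245 kb for Myod1, 802 kb for Pax7, 3633 kb for Myf6 and 3641 kb for Myf5. With 1 library the spread of these distances and scores is unknown, and neighbours in this order were not compared.

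The same count was made over 57 genes of the wider determination network, in 8 lists by role that contain the 9. Assigned peaks were found for 7 of the 57 (12.3%), beside 7.73% of all genes, and for 5 of the 48 that are not among the 9. The median distance to the nearest peak was 87.6 kb over the 9 genes, 343 kb over the 57 and 354 kb over all protein-coding genes. The value for the 9 is the Six4 distance, to a peak of score 56.4 inside Mnat1. Distances run from span ends, so long genes such as Eya1 and Eya4 take in more genome. With peaks scoring 100 or more it was 753 kb over the 9, and no median over all genes was taken at that score.

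By role, none of the 9 PAX genes and none of the 6 genes in the list of Six4 and its paralogues had an assigned peak. With 7.73% of all genes assigned a peak, counts of 0 in lists this short are near the background and are not a result about these lists. In the EYA and DACH list Eya1 and Eya4 were the only 2 of 6. Among the 3 E protein genes, whose products dimerise with the MyoD family, Tcf4 had 2 peaks, the higher-scoring inside its span (score 135) and the other 70.5 kb away (66.2). Of 12 genes for inhibitors of the family, Id3, which sequesters E proteins, had a peak of 56.3 at 20.5 kb, and Snai1, a zinc-finger repressor, a peak of 63.6 at 27.6 kb. Of 7 other progenitor regulators, Tbx1, a T-box gene of head muscle, held a peak of 60.1. None of 10 targets of the MyoD family had an assigned peak, which is likewise near the background of 7.73%, and 20% of them had any peak within 100 kb, beside 22.0% of all genes. Of the peaks named in these lists, those of Id3, Snai1, Tbx1 and Eya4 and the farther Tcf4 peak scored below the list median.

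**Figure D4:**
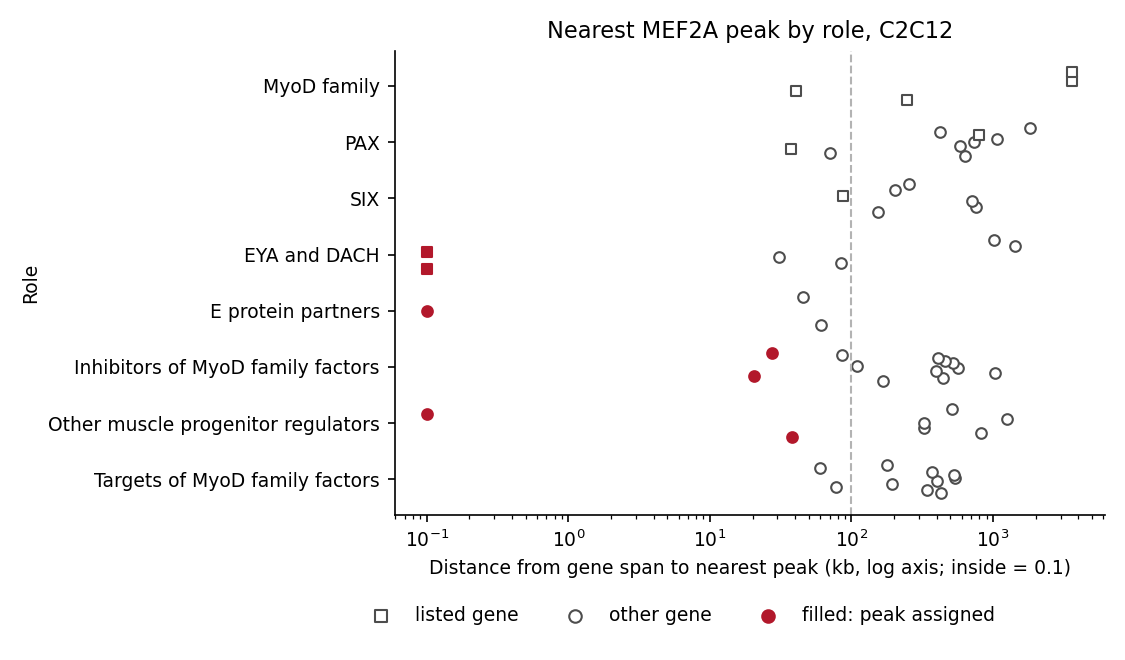
Distance in kb (log axis, peaks inside a span drawn at 0.1) from each of the 57 network genes to its nearest MEF2A peak, grouped by role, with squares for the 9 listed genes, filled symbols for genes with an assigned peak and a dashed line at 100 kb. The 7 filled symbols fall in the EYA and DACH, E protein, inhibitor and progenitor lists, and open symbols left of the line are genes whose nearest peak went to a nearer gene.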

How the data were processed

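MEF2A was immunoprecipitated from C2C12 nuclei and a ChIP-exo library was made, per the labels' protocols. Per the submitters' processing notes, the tools were MACS 1.4.2, BWA 0.5.9, CASAVA 1.7.0, SAMtools and Picard, with mm10 and rn5 as builds and no settings. The authors deposited 1 peak list per MEF2A library with a position and a score for each peak. The sources used here do not give the scale of that score or whether the IgG libraries served as control. The rat list and IgG libraries were left out.

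BED starts, which begin at 0, were raised by 1 for printing. Gene spans came from RefSeq on GRCm38.p6, the assembly behind mm10, without the mitochondrial genes. A peak inside several spans counted for each. Strand and start sites came from the RefSeq promoter table and are given only for genes found there. All 57 listed symbols were found. Territories extend to the midpoint between a span and its neighbour, by at most 100 kb. The assignment was checked on planted peaks. The genes and lists were chosen with earlier results of these data known, and the windows of 250 kb, the peak-free intervals, the territories and the motifs after seeing the data. Named genes are the 9, the next genes at their peaks, those adjacent in score, and network genes with a peak, of which 1 is not reported here. Alternatives were higher scores, other limits, merged peaks and other assignment rules. Python 3.11.15, pandas 2.3.3, numpy 2.4.6 and matplotlib 3.10.9 were used.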

Additional observations from a re-analysis of the deposited data

How the results depend on the processing

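Eya1 had an assigned peak under each of the 9 alternatives, and Eya4 under each except the 2 higher scores. A peak inside the span stays assigned at any distance limit, so the other limits could not remove either gene. At a score of at least 100, 2 peaks were assigned to 1 of the 9 genes, 2 of the 57 network genes had a peak (beside 3.47% of all genes) and the median nearest distance of the 9 genes was 753 kb. At 200 or more it was 1 peak for 1 of the 9 genes, 1 network gene (beside 1.53% of all genes) and 1592 kb. Lower-scoring peaks are left out by construction in both, and no median distance over all genes was taken at these scores. Letting every peak within 100 kb count gave 7 peaks, 5 of the 9 genes and 18 network genes, beside 22.0% of all genes. Network genes with a peak numbered 4 within 10 kb, beside 5.75% of all genes, and 4 when noncoding genes could take a peak, beside 5.96%. The nearest peaks of Myog and Pax3 stayed the same at both score thresholds, which was fixed by their scores of 635 and 290.4. Without read depth or a second library, the recurrence of the low-scoring Eya4 peaks cannot be judged. No paired analysis was possible because no group holds more than 1 library.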
